A study of Mus musculus with 12 samples.

Results

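The brain endothelial genes Cldn5, Pecam1, Cdh5, Flt1, Kdr, Tek, Tie1, Slco1a4, Vwf and Ly6c1 were read by gene symbol from the microarrays. These 10 genes had 13 probes among the 25697 probes and 18097 gene symbols of the array, and every probe was kept. The samples were hippocampus and cortex from male 3xTgAD mice, a model that carries mutant human amyloid precursor protein and tau transgenes, driven in neurons by a Thy1 promoter, with a mutant presenilin-1 knock-in. In the AMI groups, amitriptyline hydrochloride, a tricyclic antidepressant, was given at 100 µg/g body weight in the drinking water for 4 months from the age of 14 months, and the vehicle groups drank plain water. By the study's methods both groups received bromodeoxyuridine, a marker of dividing cells, while its results name bromodeoxyuridine or a vehicle control. The labels did not say which mice received it. All mice were 18 months old at harvest. Each of the 4 groups had 3 arrays, and with no wild-type group every array carried the disease transgenes. The sources did not say which mouse gave which array, so p-values measured the spread between arrays.

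Endothelial cells line the blood vessels, and in the brain they form the blood-brain barrier by sealing the clefts between them and by carrying solutes in and out through transporters. Claudin-5, the product of Cldn5, seals the tight junctions, while Pecam1 and Cdh5 encode adhesion molecules at the contacts between endothelial cells. Flt1 and Kdr encode receptors for vascular endothelial growth factors, and Tek and Tie1 encode the receptor for angiopoietins and its relative. Slco1a4 encodes an organic anion transporter of the barrier. Vwf encodes von Willebrand factor, which endothelial cells and platelets store and release, and Ly6c1 encodes a surface antigen of brain endothelium that some leukocytes also carry. Whole tissue was measured, so fewer endothelial cells and less RNA per endothelial cell could not be told apart.

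The letters of 5 probes are shown, since the bright, dim and variable readings described below came from them. Coordinates are those of the array annotation, which names no genome build. In the Tie1 probe the capitals mark the last 11 bases, which map to a second block across an exon junction.
Ly6c1, chr15:74875945-74875994, minus strand: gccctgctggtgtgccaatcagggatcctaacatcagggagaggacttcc
Vwf, chr6:125636506-125636555, plus strand: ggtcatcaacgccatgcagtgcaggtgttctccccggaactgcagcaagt
Tie1, chr4:117970900-117970938 and chr4:117970810-117970820, minus strand: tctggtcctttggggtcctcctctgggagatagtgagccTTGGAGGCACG
Slco1a4, brighter probe, chr6:141766247-141766296, minus strand: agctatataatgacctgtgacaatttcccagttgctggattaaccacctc
Flt1, dimmer probe, chr5:148393702-148393751, minus strand: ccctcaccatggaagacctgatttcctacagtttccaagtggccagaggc
No probe of another gene matched any member probe at more than 28 of 50 bases, although relatives of Ly6c1 without a probe of their own were not compared.

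Upstream sequence from RefSeq (GRCm38.p6) was held for 7 of the 10 genes, in 8 promoters because Ly6c1 had 2 starts. The 250 bases before the start are shown for 3 genes that span the range of matches to GGAA, the core letters bound by ETS factors, a family with known roles in endothelial cells. Capitals mark GGAA or its reverse complement.
Cldn5 promoter, chr16:18776597-18776846, plus strand: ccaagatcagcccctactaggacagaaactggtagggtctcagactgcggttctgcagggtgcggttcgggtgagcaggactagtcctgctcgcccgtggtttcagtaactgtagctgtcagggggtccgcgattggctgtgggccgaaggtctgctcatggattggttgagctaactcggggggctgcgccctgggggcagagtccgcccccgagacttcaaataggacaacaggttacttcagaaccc
Flt1 promoter, chr5:147726012-147726261, minus strand: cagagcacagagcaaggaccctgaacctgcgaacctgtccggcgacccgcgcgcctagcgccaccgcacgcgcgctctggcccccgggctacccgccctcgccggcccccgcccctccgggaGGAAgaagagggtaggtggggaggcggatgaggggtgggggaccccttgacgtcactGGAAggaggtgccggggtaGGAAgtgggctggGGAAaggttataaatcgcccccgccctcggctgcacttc
Tie1 promoter, chr4:118489850-118490099, minus strand: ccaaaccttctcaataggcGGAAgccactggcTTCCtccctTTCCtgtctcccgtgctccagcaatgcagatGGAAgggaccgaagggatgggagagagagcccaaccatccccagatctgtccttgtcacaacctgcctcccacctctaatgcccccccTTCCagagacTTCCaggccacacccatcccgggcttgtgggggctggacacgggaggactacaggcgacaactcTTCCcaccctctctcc
The Cldn5 promoter held 0 matches, that of Flt1 4 and that of Tie1 7, and the other promoters lay between them. GGAA occurred in 93.4% of 32851 promoters of the same length, with a median of 3 matches. The longer run AGGAAG, which overlaps GGAA, occurred in 29.5% of all promoters, 2 times in that of Flt1, 1 time in that of Tie1 and 0 times in that of Cldn5.

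On these arrays 9 probes of 8 genes were detected widely enough to be compared, where detection was a detection p of 0.05 or less and a tested probe was detected on 3 or more of the 6 arrays from a tissue. Cldn5, Flt1, both Pecam1 probes, Tek, Slco1a4, Vwf and Ly6c1 were detected on all 12 arrays. Tie1 was detected on 8, in the hippocampus on all 3 AMI arrays and on 1 of 3 vehicle arrays, and in the cortex on 1 of 3 AMI arrays and on all 3 vehicle arrays. Kdr was detected on 4 arrays, 2 of them hippocampal vehicle, and was not tested. Cdh5, the dimmer Flt1 probe and the dimmer Slco1a4 probe were detected on 0 of 12 arrays. The mean bead signal was 824.6 for the detected Flt1 probe and 67.1 for the other, and 127.4 and 51.0 for the Slco1a4 pair. Probes of 1 transcript thus read very differently, so the undetected Cdh5 probe and the rarely detected Kdr probe gave no measure of these transcripts. Undetected probes had median bead signals of 52.2 to 63.3 on hippocampal and 65.1 to 73.2 on cortical arrays.

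Several arrays stood apart over all probes. On the first principal component of the hippocampal arrays, AMI replicate 1 lay at 0.60 and vehicle replicate 1 at 0.53, with the other arrays at -0.37 to -0.15. Cortical vehicle replicate 3 lay farthest out among cortical arrays, at -0.62. The mean level of 7 choroid plexus genes, which mark the epithelium of the ventricles, was 3.42 on hippocampal vehicle replicate 3 against 0.70 to 1.11 on the other hippocampal arrays. Haemoglobin and Alas2, markers of red cells, averaged 3.42 on hippocampal AMI replicate 3 against 1.49 to 2.37 on the other hippocampal arrays. Hippocampal and cortical arrays came from different exports, with highest bead signals of 35958 to 53324 and 24573 to 27400. Tissue and export could thus not be told apart, and the labels did not say whether the arrays were also run separately. Among markers of other brain cells, the 6 neuronal genes tested averaged 4.37 to 5.05 over the 12 arrays. The 8 oligodendrocyte genes tested averaged 3.36 to 3.75 on hippocampal AMI and 3.64 to 4.23 on hippocampal vehicle arrays.

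Levels below are normalized log2 signals. The mean over all probes of an array was set to 0 and the spread of each array to the common spread of the 12 arrays, and a level compares arrays for 1 probe only.

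**Figure D1:**
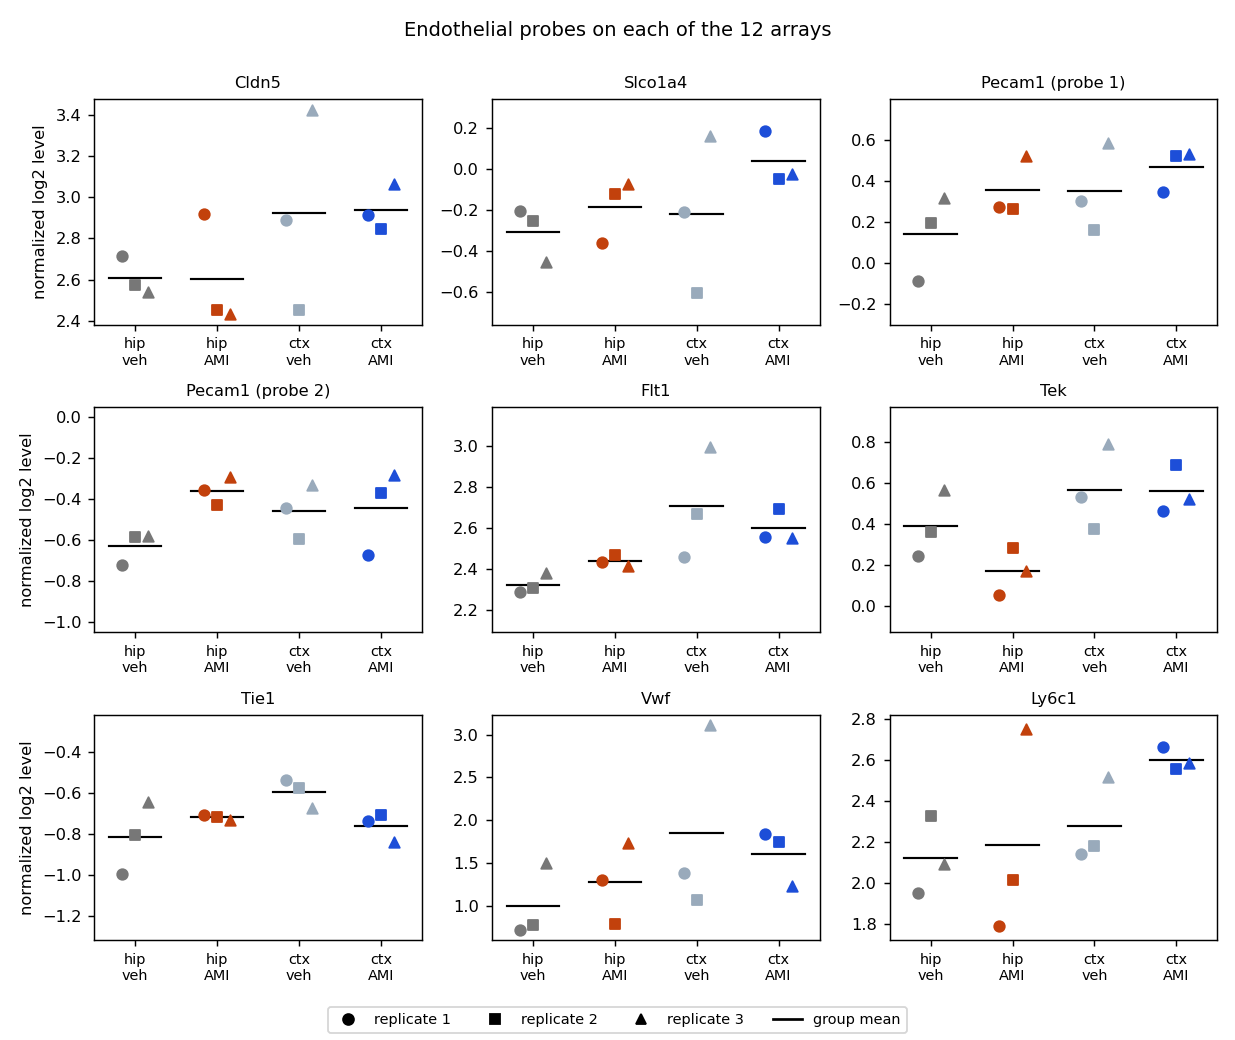
Normalized log2 level of the 9 tested endothelial probes (8 genes) on each of the 12 arrays, by tissue (hip, hippocampus; ctx, cortex) and treatment (veh, vehicle). Symbols give the replicate number, lines the group mean of 3 arrays, and each panel has its own axis; the vehicle replicate 3 array of the cortex is the highest point for Vwf at 3.11.

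The first comparison asked whether the endothelial genes differed between AMI-treated and vehicle-treated mice in the hippocampus. The 9 probes differed little, with 7 of 9 higher in AMI and a median log2 difference of 0.11, beside 0.01 over the 13163 probes tested and 55% of them higher. With an adjusted p under 0.05 required, 0 of 9 were called, and 0 probes (0%) over the array, where the smallest adjusted p was 0.715 (limma, Benjamini-Hochberg). At an unadjusted p under 0.05, 1 of 9 passed, beside 2.35% of all probes. The oligodendrocyte genes, which encode myelin proteins, had larger differences, with 0 of 8 higher in AMI, a median of -0.40, 3 with an unadjusted p under 0.05 and 0 with an adjusted one. Their part in the endothelial values was not tested.

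Pecam1 was the member with the unadjusted p under 0.05. Its dimmer probe read -0.35, -0.43 and -0.29 on AMI replicates 1 to 3 and -0.72, -0.58 and -0.58 on the vehicle replicates. Every AMI array exceeded every vehicle array, and the log2 difference was 0.27 ± 0.09 (SE, n = 3 and 3, limma adjusted p = 0.9996). Groups were apart in this way for 2 of 9 members and for 7.89% of all probes. The brighter Pecam1 probe read 0.27, 0.26 and 0.52 with AMI and -0.09, 0.19 and 0.31 with vehicle. Its groups overlapped, with a log2 difference of 0.21 ± 0.13 (SE, limma adjusted p = 0.9996), so that the 2 probes had the same direction.

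The vascular growth factor receptor Flt1 had the narrowest spread in the hippocampus. It read 2.43, 2.46 and 2.41 with AMI and 2.28, 2.30 and 2.38 with vehicle. The groups were apart by a small step, 0.11 ± 0.09 (SE, limma adjusted p = 0.9996). Tek lay the other way at 0.05, 0.28 and 0.17 with AMI against 0.24, 0.36 and 0.56 with vehicle. These groups overlapped, and the difference was -0.22 ± 0.11 (SE, limma adjusted p = 0.9996). The 95% interval of the Tie1 difference ran from -0.15 to 0.34. Tie1 was detected on all 3 AMI arrays and on 1 of 3 vehicle arrays, so the AMI arrays alone were enough for it to be tested.

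Vwf and Ly6c1 varied most between hippocampal replicates. Vwf read 1.31, 0.80 and 1.74 with AMI and 0.72, 0.78 and 1.50 with vehicle, and replicate 3 was the highest of each group. Ly6c1 read 1.79, 2.02 and 2.75 with AMI and 1.95, 2.33 and 2.09 with vehicle. Its highest reading was on AMI replicate 3, the array with the highest red cell markers. On that array Hba-a1, Hbb-b1 and Alas2 were at 6.75, 2.16 and 1.34, against at most 6.16, 1.22 and -0.27 on the other hippocampal arrays. These 3 were the only 3 of 10 blood genes tested, Ptprc was detected on 0 of 12 arrays, and the part of blood in the Ly6c1 value was not tested. Without that array the Ly6c1 difference was -0.22 in place of 0.06. Cldn5 had a log2 difference of -0.01 and Slco1a4 of 0.12, both with overlapping groups.

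Same-numbered hippocampal arrays deviated together, at correlations of 0.611, 0.296 and 0.293, so the comparison was also made with the replicate number as a block. Some arrays with different numbers did too, AMI replicate 3 with vehicle replicate 2 at 0.28 and AMI replicate 2 with vehicle replicate 3 at 0.167. The pairing was taken from these same arrays, so the block gives no independent support. With the block, 4 of 9 member probes had an unadjusted p under 0.05, beside 8.08% of all probes, and 0 had an adjusted p under 0.05 (the smallest among members was 0.584). The 4 were both Pecam1 probes and Vwf, higher in AMI, and Tek, lower.

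**Figure D2:**
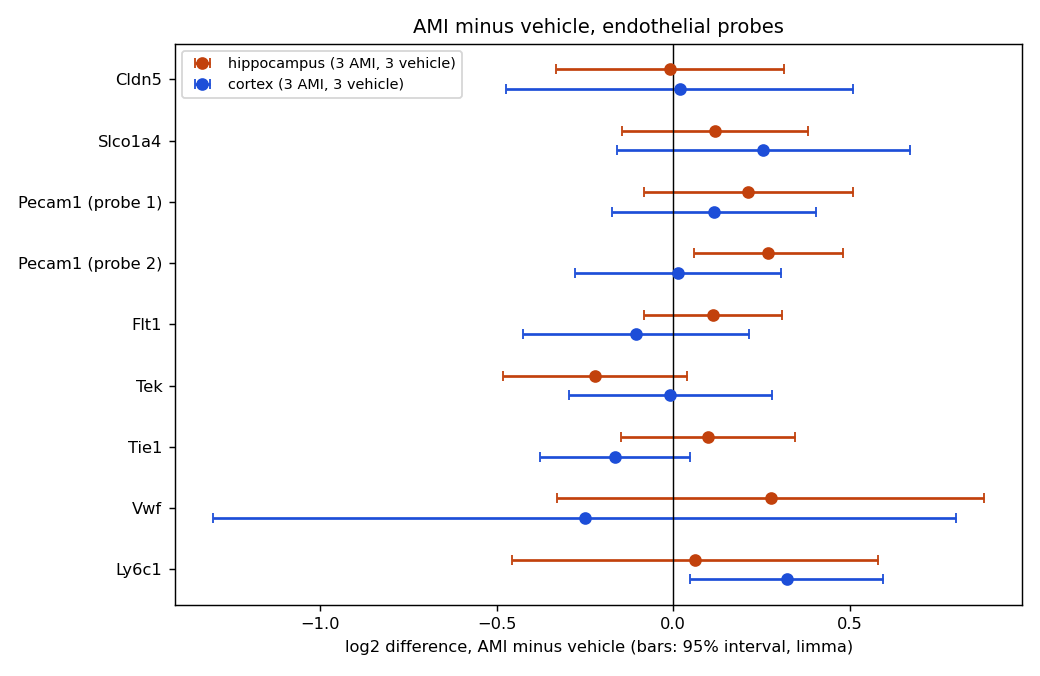
Log2 difference, AMI minus vehicle, of the 9 tested endothelial probes in hippocampus and cortex, with 3 arrays per group; points are limma estimates and bars their 95% intervals. Only the dimmer Pecam1 probe in the hippocampus (0.27) and Ly6c1 in the cortex (0.32) have intervals that leave out 0.

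The same question was asked in the cortex. Ly6c1 read higher with AMI, Tie1 read lower, and 5 of 9 probes lay above 0, with a median log2 difference of 0.01 beside 0.02 over 12944 probes, of which 57.1% were higher. An adjusted p under 0.05 was reached by 0 of 9 members and 0 probes (0%) over the array, the smallest adjusted p being 0.153 (limma). At an unadjusted p under 0.05, 1 of 9 passed, beside 6.28% of all probes.

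Ly6c1 read 2.66, 2.55 and 2.59 on the AMI replicates and 2.14, 2.18 and 2.52 on the vehicle replicates. The AMI arrays lay close together and above every vehicle array, although vehicle replicate 3 came within reach of them. The log2 difference was 0.32 ± 0.12 (SE, n = 3 and 3, 95% interval 0.05 to 0.59, limma adjusted p = 0.756). It lay between 0.25 and 0.45 under all alternative settings, with an adjusted p from 0.0518 upward. The cortical blood markers ran the other way, with 0 of 4 tested higher in AMI and a median of -0.15.

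The Tie1 receptor read -0.73, -0.70 and -0.84 with AMI and -0.54, -0.58 and -0.67 with vehicle. Its groups were apart as well, the AMI arrays lower, with a log2 difference of -0.16 ± 0.09 (SE, limma adjusted p = 0.808), although it was detected on 1 of the 3 AMI arrays and on all 3 vehicle arrays, which alone were enough for it to be tested. Ly6c1 and Tie1 were thus the 2 of 9 probes with groups apart, beside 12.2% of all probes, but the gap of Tie1 was tied to the filter. The barrier genes differed by 0.02 for Cldn5 and 0.26 for Slco1a4, and their groups overlapped.

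Cortical vehicle replicate 3 read high across the endothelial genes. It lay above the mean of the 6 cortical arrays for 9 of 9 probes, by 0.34 on average and by 0.21 without Vwf, though for Tie1 by under 0.01. The share of all probes above that mean on this array was not counted. Vwf stood out most, at 3.11 against 1.39 and 1.08 on the other vehicle arrays and 1.84, 1.75 and 1.24 on the AMI arrays. The bead signals behind these were 896.5, 358.2 and 281.6 for vehicle replicates 3, 1 and 2. Cldn5 read 3.43 on this array against 2.89 and 2.45, and Slco1a4 read 0.16 against -0.21 and -0.61. Vehicle replicate 2 was the low one, with 2 of 9 probes above the cortical mean and an average of -0.26. The same 2 arrays were the extremes among cortical vehicle arrays for 31 other endothelial genes, whose mean level was 0.94 on replicate 3, 0.76 on replicate 1 and 0.65 on replicate 2. On cortical AMI replicates 1 to 3 that mean level was 0.86, 0.97 and 0.83.

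The cortical values were recomputed with single arrays left out. Vehicle replicate 3 was singled out for its high readings, so leaving it out raised the differences, other than that of Tie1, by construction. Without it, 8 of 9 member probes were higher in AMI, with a median log2 difference of 0.23 beside 0.02 over all probes. Ly6c1 then differed by 0.44 (limma adjusted p = 0.128) and Slco1a4 by 0.45 (adjusted p = 0.189). These were the 2 of 9 with an unadjusted p under 0.05, beside 15.1% of all probes, and 0 of 9 had an adjusted p under 0.05. Vwf stood at 0.38 ± 0.18 in place of -0.25 ± 0.46 (SE), and Tie1 remained the 1 probe below 0, at -0.20. Without vehicle replicate 2, 3 of 9 probes were higher and Cldn5 stood at -0.22, and without AMI replicate 3, 4 of 9 were higher. Relative to the median of all probes, the members' median was -0.01 with all arrays. It became 0.21 with vehicle replicate 3 left out, -0.13 with vehicle replicate 2 left out and -0.09 with AMI replicate 3 left out, and 0 members were called each time.

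**Figure D3:**
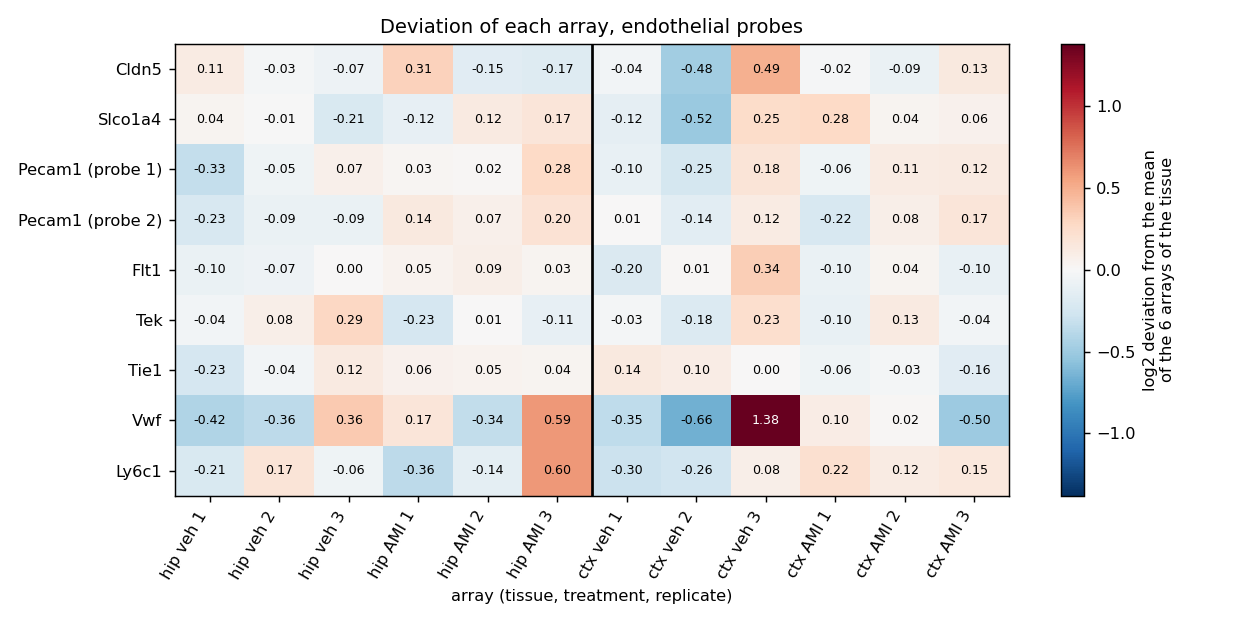
Deviation of each array (columns) from the mean of the 6 arrays of its tissue, in log2 units, for the 9 tested endothelial probes (rows); red is above and blue below the tissue mean. Cortical vehicle replicate 3 is red or near 0 in every row and highest for Vwf, and cortical vehicle replicate 2 is mostly blue.

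An interaction term fitted to all 12 arrays asked whether the AMI difference of each member depended on tissue. An adjusted p under 0.05 was reached by 0 of 9 members and 0 probes (0%), and an unadjusted p under 0.05 by 0 of 9 members and 377 probes (3.03%, limma). The interval for Ly6c1, hippocampal minus cortical AMI difference, ran from -0.87 to 0.35, and that for Vwf from -0.78 to 1.83. For Tie1, higher in the hippocampus and lower in the cortex, the interaction was 0.26 ± 0.14 (SE, limma adjusted p = 0.9999). In each tissue the group where Tie1 read higher was alone enough for it to be tested, so these opposite directions were tied to the filter. With 3 arrays against 3, an exact permutation test of 1 value could not go below p = 0.1.

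Between tissues the endothelial probes leaned to the cortex. In vehicle mice all 9 lay lower in the hippocampus, with a median log2 difference of -0.21 beside 0.03 over the 12430 probes tested in both tissues, of which 55.1% were higher in the hippocampus. In AMI mice 7 of 9 were lower, with a median of -0.22 beside 0.02 and 52.7% of all probes higher. The group means of the vehicle and AMI comparisons came from different arrays. Both comparisons were taken from the same fit to all arrays and shared its estimate of spread, so their p-values were not independent. In both of them tissue and run could not be told apart. Flt1 alone passed in vehicle mice, at 2.28 to 2.38 in the hippocampus and 2.45 to 2.99 in the cortex. Every hippocampal array was below every cortical array, and the difference was -0.38 ± 0.12 (SE, n = 3 and 3, limma adjusted p = 0.0323). That was 1 of 9, beside 24.9% of all probes called and 10% called lower. It was also the 1 probe with groups apart, beside 40.1% of all probes, while 2 of 9 had an unadjusted p under 0.05, beside 37.4%. Tie1 was the other of these, and its cortical vehicle arrays, where it read higher, were alone enough for it to be tested in the cortex.

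In AMI mice the angiopoietin receptor Tek was the 1 of 9 called, beside 26.1% of all probes and 11.5% called lower. It read 0.05 to 0.28 in the hippocampus and 0.46 to 0.69 in the cortex, a difference of -0.39 ± 0.12 (SE, limma adjusted p = 0.0352). In vehicle mice Tek had the same direction at -0.18 (adjusted p = 0.336), and Flt1 in AMI mice stood at -0.16 (adjusted p = 0.344). Groups were apart for 3 of 9 probes in AMI mice, Tek, Flt1 and Slco1a4, beside 41.5% of all probes, and 1 of 9 had an unadjusted p under 0.05, beside 38.4%. Neither difference between treatments passed the interaction test. Cldn5 stood at -0.31 in vehicle and -0.34 in AMI mice, both with adjusted p above the threshold (0.281 and 0.233). Vwf had the widest interval in vehicle mice, from -1.78 to 0.07. The cortical vehicle arrays in it read 1.39, 1.08 and 3.11.

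The shift of all probes bears on these values. With median centring in place of scaling, the median over all probes was 0.21 in vehicle and 0.22 in AMI mice, 2 and 5 of 9 members were above 0, and 0 members were called. Relative to the median of all probes, the members' median was -0.24 in both treatments, and -0.25 in vehicle and -0.20 in AMI mice with median centring. Without cortical vehicle replicate 3 it was -0.13 in vehicle mice, 8 of 9 probes were lower, and 0 were called.

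Markers of other cells also lay lower in the hippocampus. In vehicle mice 0 of 6 neuronal genes were higher there (median -0.31), 1 of 8 oligodendrocyte genes (-0.22) and 3 of 10 astrocyte genes (-0.12), while microglial genes were higher in 10 of 10 (0.53). With median centring the neuronal, oligodendrocyte and astrocyte medians turned to 0.35, 0.33 and 0.34, above the 0.22 of all genes. The part of these cells in the endothelial values was not tested.

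**Figure D4:**
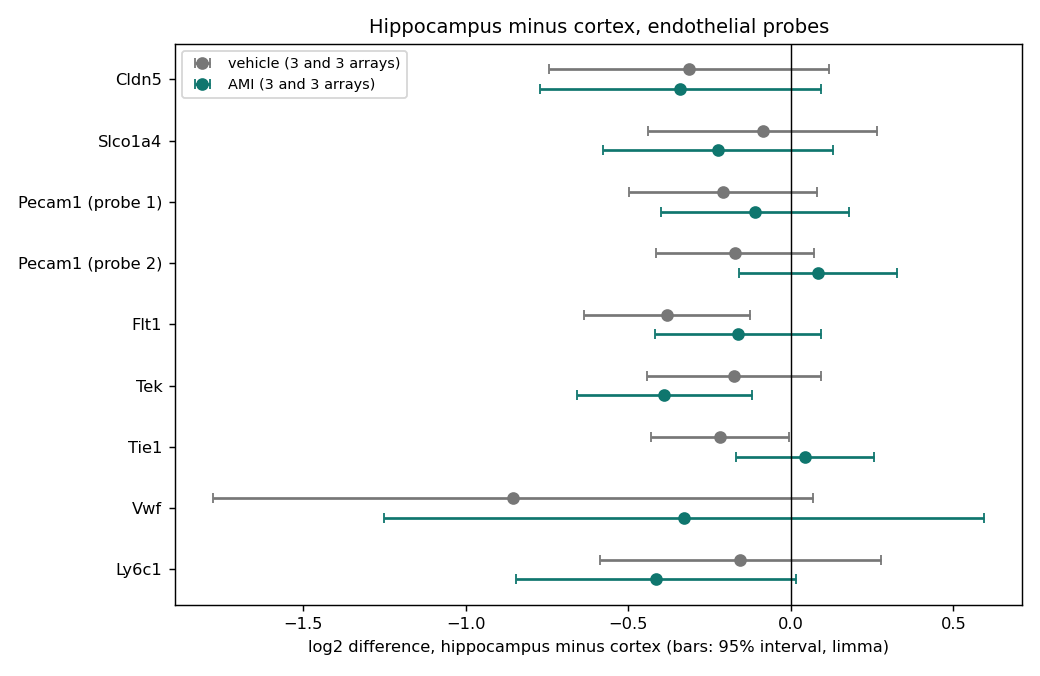
Log2 difference, hippocampus minus cortex, of the 9 tested endothelial probes in vehicle and AMI mice, with 3 arrays per group; points are limma estimates and bars their 95% intervals. All 9 vehicle points lie below 0, and the intervals that leave out 0 are those of Flt1 and Tie1 in vehicle and Tek in AMI mice.

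Other genes of vessels were read from lists, with 1 probe per gene. Of 51 further endothelial genes, 31 were tested in the hippocampus and 23 were higher with AMI, with a median of 0.09 beside 0.01 over 9940 genes, of which 53.8% were higher. In the cortex 32 were tested and 22 were higher, with a median of 0.08 beside 0.01 over 9802 genes and 54.2% higher. With quantile normalization 18 of the 32 were higher, beside 47.9% of all genes. An adjusted p under 0.05 was reached by 0 in either tissue (limma). An unadjusted p under 0.05 was reached by 3 of 31 in the hippocampus, beside 2.35% of all probes, and by 3 of 32 in the cortex, beside 6.28%, all higher. In the hippocampus, Cav1, which encodes caveolin-1 of membrane caveolae, read 1.32, 1.28 and 1.40 with AMI and 0.96, 0.99 and 0.97 with vehicle. The groups were apart, with a log2 difference of 0.36 ± 0.09 (SE, adjusted p = 0.9996). Eltd1, an adhesion receptor of endothelium, differed by 0.37 ± 0.13 (SE). Both are in the list of changed hippocampal genes that the study drew from these samples, so their direction is no independent evidence.

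In the cortex, Emcn, which encodes the endothelial sialomucin endomucin, differed by 0.36 ± 0.10 and the barrier anion transporter Slc22a8 by 0.31 ± 0.10 (SE, limma adjusted p = 0.756 for both). The AMI arrays of both lay above every vehicle array. Slc22a8, however, was detected on all 3 cortical AMI arrays and on 1 of 3 vehicle arrays. The AMI group, where it read higher, was alone enough for it to be tested. Its difference and gap were thus tied to the filter and were not read as a result, although the list counts include it. Without cortical vehicle replicate 3, 24 of 32 further endothelial genes were higher in AMI, beside 53.1% of all genes, and the median was 0.15. An unadjusted p under 0.05 was reached by 9, and the share over all probes was also larger without that array, at 15.1%. That array was left out because its endothelial readings were high, so a rise in these differences followed from the choice.

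Among ligands, Angpt2, an angiopoietin that competes at the Tek receptor, read 0.40, 0.35 and 0.31 with AMI and 0.06, -0.11 and -0.01 with vehicle in the cortex. The groups were well apart, by 0.38 ± 0.09 (SE, limma adjusted p = 0.756). In the hippocampus Angpt2 overlapped, with a difference of 0.09 ± 0.24 (SE). Angpt1, the activating ligand of Tek, was detected on 3 of 12 arrays, the 3 cortical AMI arrays. It entered the cortical comparison through the group where it was high, so its difference of 0.20 and the gap between its groups followed from the filter and were not read as a result. Vegfa, the main ligand of Kdr, differed by 0.21 in hippocampus and 0.06 in cortex, and Vegfb, a ligand of Flt1, by 0.09 and -0.27. The groups of both overlapped in both tissues. Of the ligands and receptors tested, 11 of 14 hippocampal and 10 of 15 cortical ones had a higher mean with AMI, with medians of 0.07 and 0.04, and 0 reached an adjusted p under 0.05. The cortical count and median include Angpt1. They also include Efnb2, detected on all 3 cortical AMI arrays and on 1 of 3 vehicle arrays, so the AMI arrays alone were enough for it.

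Genes of the other vessel layers were read in the same way. Mural genes, which mark pericytes and smooth muscle, were higher in 4 of 9 (hippocampus) and 5 of 10 (cortex), with medians of -0.00 and -0.01. Of the 8 basement membrane genes tested, the AMI mean was above the vehicle mean for 3 in hippocampus and 2 in cortex, the cortical median being -0.14. In the cortex Sparc, a matrix-binding glycoprotein, differed by -0.40 ± 0.11 and Col4a2, a type IV collagen chain, by -0.37 ± 0.11 (SE, limma adjusted p = 0.756 for both), the latter also in the study's list. Vascular fibroblast genes were higher in 2 of 6 and 6 of 6, with medians of -0.13 and 0.13. Their mean level was 2.20 on hippocampal vehicle replicate 3, against 1.32 and 1.38 on the other hippocampal vehicle arrays. Of the endothelial activation genes, 3 of 5 and 4 of 5 were higher. Choroid plexus genes were higher with AMI in 0 of 7 in the hippocampus, with a median of -0.74, and in 7 of 9 in the cortex. On hippocampal vehicle replicate 3 their mean level was 3.42, against 0.90 and 1.11 on the other hippocampal vehicle arrays. The 7 hippocampal genes include Otx2, detected on all 3 vehicle arrays, where it read higher, and on 1 of 3 AMI arrays. Its vehicle arrays alone were enough for it to be tested. The part of this epithelium in the vessel genes was not tested.

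**Figure D5:**
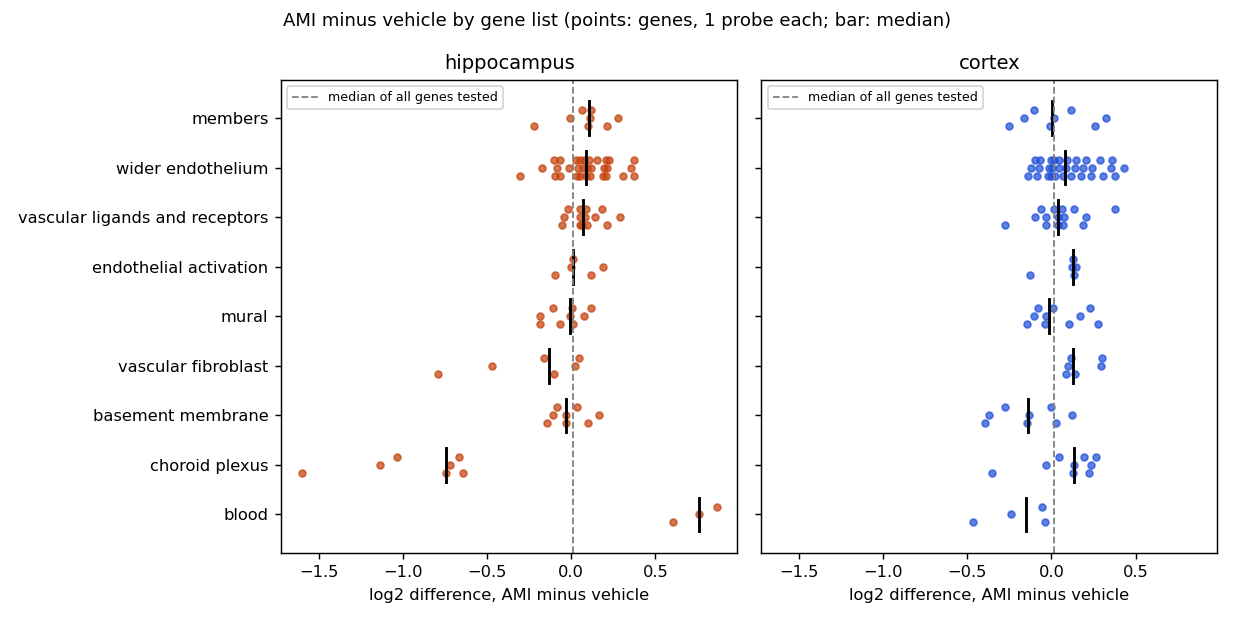
Log2 difference, AMI minus vehicle, of single genes (points, 1 probe each) in 9 gene lists, in hippocampus and cortex. Bars are list medians and dashed lines the median of all genes tested. The 31 and 32 further endothelial genes have medians of 0.09 and 0.08. Choroid plexus and blood genes lie far from 0 in the hippocampus, where vehicle replicate 3 and AMI replicate 3 read highest for them.

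Between tissues the further endothelial genes lay on both sides. In vehicle mice 12 of 31 were higher in the hippocampus, with a median of -0.08 beside 0.03 over 9470 genes, and with median centring 22 of 31 were. Adjusted p under 0.05 was reached by 3 of 31, beside 24.9% of all probes, and the 3 were higher in the hippocampus: Ramp2, a receptor activity-modifying protein, by 0.91, Car4, a carbonic anhydrase of the capillary surface, by 0.42, and Tjp1, a tight junction scaffold, by 0.29. In AMI mice 15 of 31 were higher, and 8 were called, beside 26.1% of all probes. Ramp2, Car4, Tjp1 and Ptprb, a receptor phosphatase of endothelium, were higher, and Arhgap29, Cav2, Itm2a and Pltp were lower, by log2 differences of -0.82 to -0.41. In vehicle mice the neuropilin Nrp1, a co-receptor of Flt1 and Kdr that neurons also express, was 1.86 higher in the hippocampus (limma adjusted p = 1.48e-07). Edn1, which encodes endothelin-1, was lower in the same mice, by a log2 difference of -0.36. In AMI mice the differences of Nrp1 and Edn1 were 1.87 and -0.30.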

How the data were processed

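RNA from 6 hippocampal and 6 cortical samples was hybridized by the authors to Illumina MouseRef-8 BeadChips. The deposited tables hold bead signal intensities, not normalized, with the detection p-value of each reading. Per the file headers and labels, BeadStudio 3.4 exported the hippocampal table and GenomeStudio 1.1.1 the cortical one. Array number, not read depth, limits the precision.

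Signals were taken to log2, z normalized per array after the study's methods and returned to log2 units by multiplying with their mean SD. A probe entered a fit if 3 or more of 6 arrays detected it (detection p up to 0.05), and fits were made with limma 3.58.1 (R 4.3.3) within a tissue. Tissue contrasts and the interaction used 12 arrays and probes tested in both tissues. Benjamini-Hochberg adjustment ran over all tested probes. The script was tested on simulated data. The probe detected on most arrays, then the brightest, stood for a gene in lists.

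The members and lists were chosen with earlier results of these data known. All member probes were named, and from other lists up to 3 genes per tissue and direction with an unadjusted p under 0.05 and groups apart, or for tissues an adjusted p under 0.05 in vehicle, besides vascular ligands. Blood genes, and further endothelial genes called between tissues in AMI mice, were named after their values were seen. Deviations of same-numbered arrays correlated at 0.611, 0.296 and 0.293 in the hippocampus, from which the pairing was taken. The alternatives were other normalization, background correction, filters, variance models, array weights, single arrays left out and a replicate block. Settings for the list counts were added after seeing the data.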

Additional observations from a re-analysis of the deposited data

How the results depend on the processing

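For AMI against vehicle and for the interaction, 0 members were called in every setting run, and over all probes the 0 calls became at most 1 in the hippocampus (without AMI replicate 2) and 2 in the cortex (neqc, array weights, trend and robust variances; 1 without AMI replicate 3). By the methods' t-test 2 hippocampal and 1 cortical member probes had an unadjusted p under 0.05, and 0 passed after Benjamini-Hochberg adjustment. For the tissues in vehicle mice the count of 1 became 2 with quantile normalization, 2 with neqc, 2 with array weights, 0 with median centring and 0 from the 6 arrays of that treatment alone, and ranged from 0 to 1 with single arrays left out (0 without any 1 of the hippocampal vehicle arrays or cortical vehicle replicate 3). In AMI mice it became 0 with median centring and 3 with array weights, and ranged from 0 to 1 (0 without hippocampal AMI replicate 1 or any 1 cortical AMI array). The causes were not tested. Over all probes, array weights gave 4750 and 6397 calls against 3099 and 3239, and leaving out cortical AMI replicate 1 gave 1947 in AMI mice.

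The replicate block changed no call: 0 members in each tissue's AMI comparison, 1 in each tissue comparison (Flt1 adjusted p = 0.0396, Tek adjusted p = 0.0246) and 0 in the interaction (limma). In the cortex same-numbered arrays correlated at -0.061, 0.329 and 0.333, and across tissues at -0.347 to 0.086, so there the samples share only a number.

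With median centring the sign turned for Cldn5 (hippocampus, AMI minus vehicle, 0.074), Tek (cortex, 0.022), Cldn5 and Ly6c1 (tissues in vehicle, 0.078 and 0.178), and Cldn5, Flt1 and Pecam1 (tissues in AMI, 0.039, 0.202 and 0.022). The dimmer Pecam1 probe, at 0.015 in the cortex, turned with quantile normalization (-0.024), neqc (-0.059) and array weights (-0.1). With array weights the sign also turned for Vwf (cortex, 0.293), Ly6c1 and Slco1a4 (tissues in vehicle, 0.05 and 0.035) and Pecam1 (tissues in AMI, 0.039). With single arrays left out, AMI minus vehicle ranged in the hippocampus from -0.168 to 0.076 for Cldn5 and from -0.22 to 0.26 for Ly6c1, and in the cortex from -0.217 to 0.27 for Cldn5, from -0.102 to 0.104 for Tek, from -0.231 to 0.039 for Flt1 and from -0.641 to 0.378 for Vwf, the last 2 above 0 only without vehicle replicate 3. The dimmer Pecam1 probe ranged from -0.065 to 0.13 in the cortex, below 0 without AMI replicate 2 or 3 or vehicle replicate 2, and between tissues in AMI mice from -0.033 to 0.162, below 0 only without cortical AMI replicate 1 (0.248 with array weights, limma adjusted p = 0.0384). Slco1a4 between tissues in vehicle ranged from -0.282 to 0.103, above 0 only without cortical vehicle replicate 3. All other member values kept their direction in the settings run.

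Dim probes limit Tie1, which lay near the detection threshold, and Kdr and Cdh5, which were not tested.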
